A study of Mus musculus with 6 samples.

Results

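The cholesterol gene list holds 32 genes for the enzymes of cholesterol synthesis, the regulators that set their transcription, and the proteins that take up, move, store and export cholesterol. A gene counted as measured where a row of the deposited table is annotated with its symbol and no other, and the row with the highest mean over all arrays stands for the gene. That left 29 of the 32 genes, among 22180 genes measured in all. The thiolase gene Acat2 and the acyltransferase gene Soat2 have no row annotated to them in the annotation used, and the row of the isomerase gene Idi1 names a further gene, so these 3 were not analysed here. The list was drawn up by function, but with earlier results of these data known.

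Liver RNA came from Pfn2-/- mice, which lack profilin 2, a regulator of actin assembly, and from wild-type mice. All were of strain C57BL/6, with 3 biological replicates of either genotype on 1 Affymetrix array each, and replicates 1, 2 and 3 were 9, 8.5 and 8 months old in both genotypes. How the allele was made, whether it acts in every tissue, the sex of the animals, their feeding and the hour of dissection are not stated in the labels. The deposited values are RMA expression values on the log2 scale, so that a difference of 1 is a doubling, and all differences below are Pfn2-/- minus wild type.

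The liver makes cholesterol from acetyl-CoA by way of mevalonate and squalene, and the transcription factor SREBP2, product of Srebf2, drives most enzymes of that route. When sterols are scarce the escort protein Scap carries the SREBP2 precursor out of the endoplasmic reticulum to be cleaved. When sterols are plentiful the Insig proteins hold Scap back, while liver X receptors turn on genes for cholesterol export such as Abca1, Abcg1, Abcg5 and Abcg8.

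The row of the targeted gene Pfn2 lay at 3.88, 3.81 and 3.93 in Pfn2-/- liver, against 4.02, 3.85 and 4.09 in wild-type liver (difference -0.11, SE 0.12, limma adjusted p = 0.961). It was dim in both groups, at percentile 28.8 of all gene means, and which part of the transcript it reads is not given here, so it does not check the genotype labels. The 6 hepatocyte markers Alb, Ttr, Apoa1, Hnf4a, Cyp2e1 and Serpina1b were bright, with a mean of 10.26 to 10.33 in Pfn2-/- arrays and 10.26 to 10.37 in wild-type arrays. Array medians were 4.36 to 4.41, and arrays correlated over all genes at 0.981 to 0.986 within Pfn2-/-, 0.983 to 0.990 within wild type and 0.981 to 0.987 between them.

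No cholesterol gene separated the genotypes. With limma, 0 of the 29 measured genes passed a Benjamini-Hochberg adjusted p of 0.05 over all genes (0% of all genes passed), and 0 of 29 had an unadjusted p under 0.05, where 5.29% of all 22180 genes did. In all 29 the Pfn2-/- and wild-type values overlapped, while in 9.85% of all genes they did not. The smallest unadjusted p was 0.0805, for Abcg5 (limma adjusted p = 0.942). With a block for replicate number, and so for age, the unadjusted limma p of Abcg5 was 0.0176 (limma adjusted p = 0.816). The median difference of the 16 measured synthesis enzymes was -0.11 and that of the 9 uptake, transport and efflux genes was -0.11, beside 0 for all genes. The enzymes' median turned to 0.26 without wild-type replicate 3, 0.07 without Pfn2-/- replicate 3 and 0.08 with arrays weighted by quality, and the sign of 17 of the 29 genes turned when some array was left out. The intervals remain wide: for Hmgcs1 the 95% interval ran from -0.65 to 1.5 and for Lss from -1.39 to 0.62, so sizeable differences of these genes were not detectable with 3 arrays a group. They were narrower for others, from -0.40 to 0.18 for Abca1 and from -0.19 to 0.42 for Srebf2.

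**Figure D1:**
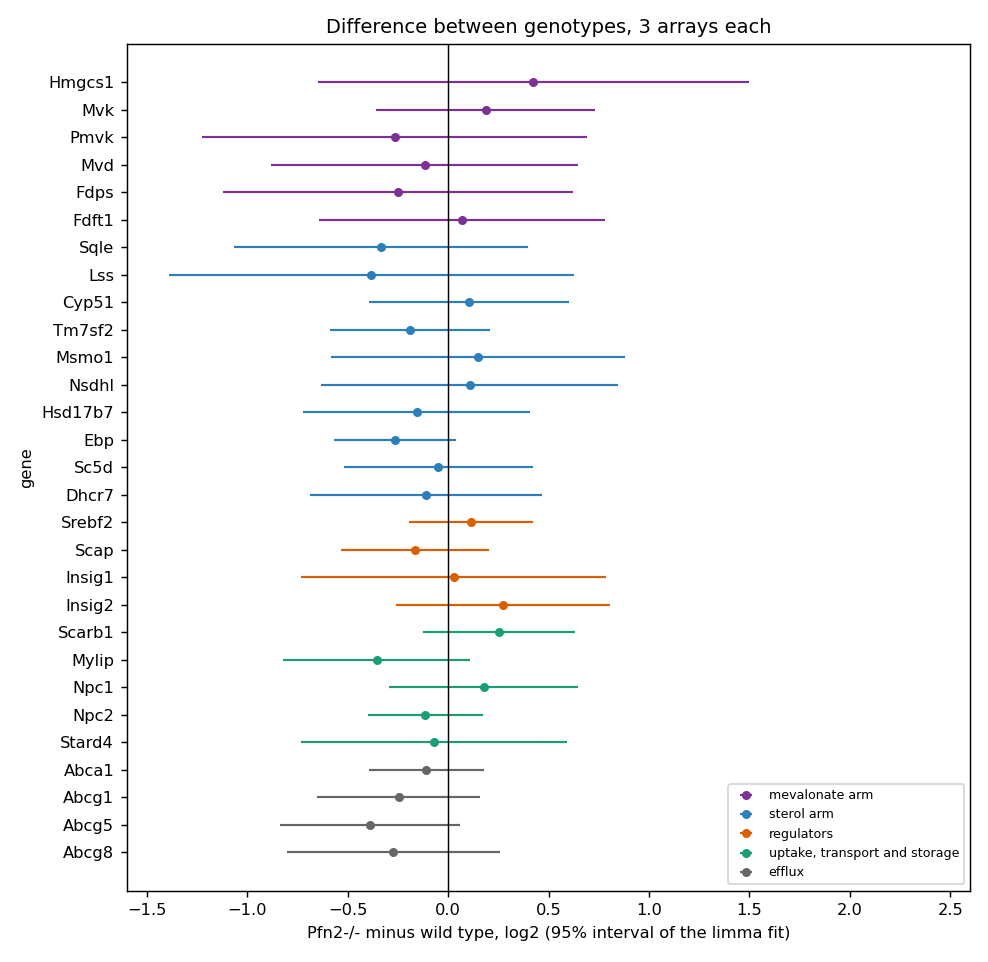
Difference of each of the 29 measured cholesterol genes, Pfn2-/- minus wild type on the log2 scale, with points for the limma estimate and bars for its 95% interval (3 arrays per genotype), coloured by role. Every interval includes 0, and those of the mevalonate genes Hmgcs1, Pmvk and Fdps and of the sterol gene Lss are among the widest.

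What these genes showed instead was a large spread between animals of the same genotype, shared by nearly the whole synthesis route. The mean of the 16 enzymes, each centred on its own average, was 0.36, 0.02 and -0.48 in Pfn2-/- replicates 1, 2 and 3, against -0.48, -0.11 and 0.69 in wild-type replicates 1, 2 and 3. High and low arrays therefore occurred in both genotypes. From replicate 1 to replicate 3 the mean fell in Pfn2-/- and rose in wild type. Each replicate of a genotype also had its own age (9, 8.5 and 8 months), so age and animal cannot be told apart within a genotype. Wild-type replicate 3 and Pfn2-/- replicate 1 were the 2 highest arrays in 14 of the 16 enzymes, and wild-type replicate 1 or Pfn2-/- replicate 3 was the lowest in 14 of 16. The spread within genotypes, as the residual SD of the fit, lay above the 90th percentile of all genes for 14 of 16 enzymes, the others being Tm7sf2 and Ebp. Its median was 0.58 for the enzymes and 0.17 for all genes. A wide spread was not particular to the enzymes. The median was 0.70 for the lipogenesis genes, 0.64 for the clock genes and 0.46 for the fasting-responsive genes described below. Genotype accounted for a median of 4.25% of the variance of an enzyme over the arrays, against 12.6% for all genes.

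**Figure D2:**
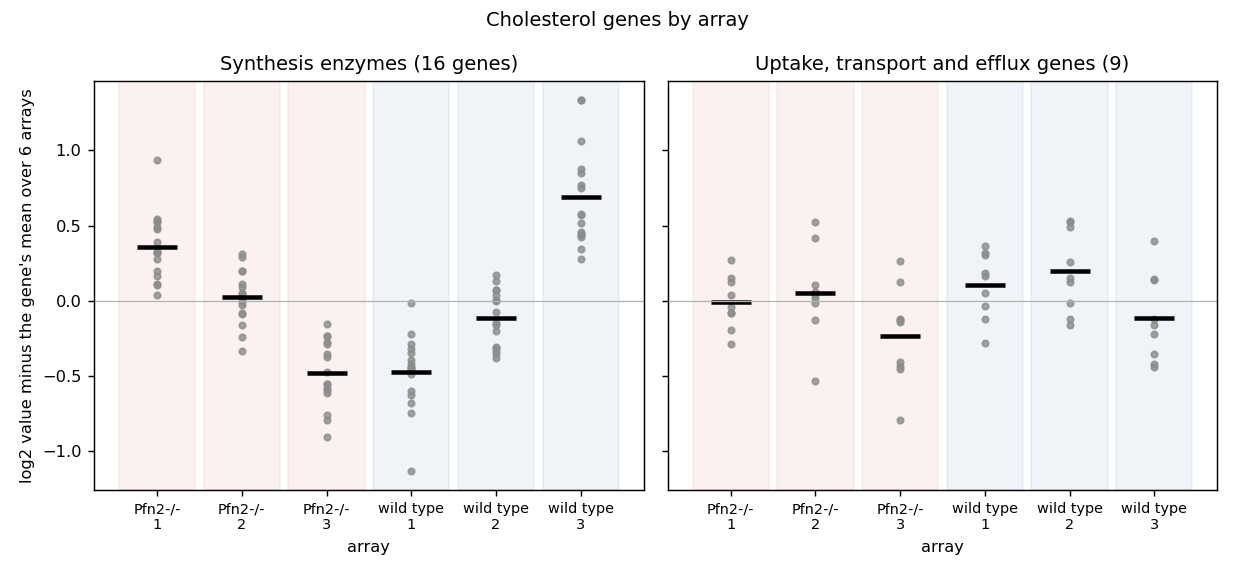
Log2 value minus the gene's mean over the 6 arrays, for 16 synthesis enzymes (left) and 9 uptake, transport and efflux genes (right). Grey points are genes, black bars the mean of the genes on an array. The enzyme means run from -0.48 in Pfn2-/- replicate 3 to 0.69 in wild-type replicate 3, and the other genes do not share that order.

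Of the first steps, which lead to squalene, 6 enzyme genes were measured. Hmgcs1 encodes the cytosolic synthase that makes HMG-CoA, the precursor of mevalonate. It lay at 11.31, 10.66 and 9.78 in Pfn2-/- replicates 1 to 3, against 9.24, 10.02 and 11.22 in wild-type replicates 1 to 3, a difference of 0.42 (SE 0.48, limma adjusted p = 0.964). The highest Pfn2-/- array and the highest wild-type array were nearly level, and the fold between the highest and lowest of the 6 arrays was 4.20. The residual SD of Hmgcs1 was at percentile 99.8 of all genes.

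Pmvk, the phosphomevalonate kinase gene, lay at 7.87, 7.81 and 7.21 in Pfn2-/- liver, against 7.14, 7.45 and 9.10 in wild-type liver (difference -0.27, SE 0.43). Its wild-type replicate 3 stood well above the other 5 arrays. Mvd, whose enzyme decarboxylates mevalonate diphosphate to the isoprenoid building block, lay at 6.63, 5.77 and 5.73 in Pfn2-/- liver, against 5.78, 5.72 and 6.98 in wild-type liver (-0.12, SE 0.34). In Mvd 1 array of either genotype was high and the other 4 were nearly level. Fdps, the farnesyl diphosphate synthase gene, lay at 9.19, 8.79 and 8.04 in Pfn2-/- liver, against 8.31, 8.60 and 9.86 in wild-type liver (-0.25, SE 0.39). The mevalonate kinase gene Mvk and the squalene synthase gene Fdft1 were also highest in replicate 1 among the Pfn2-/- arrays and in replicate 3 among the wild-type arrays, with ranges over the 6 arrays of 0.90 and 1.17 and differences of 0.19 (SE 0.24) and 0.07 (SE 0.32).

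From squalene to cholesterol all 10 listed enzyme genes were measured. Sqle encodes squalene epoxidase, the first oxygen-requiring step of the route and a strongly regulated target of SREBP2. It lay at 8.57, 8.22 and 7.46 in Pfn2-/- liver, against 7.81, 8.42 and 9.02 in wild-type liver (-0.33, SE 0.33). The difference was -0.02 without Pfn2-/- replicate 3, -0.03 without wild-type replicate 3 and -0.64 without wild-type replicate 1. Lss encodes the cyclase that forms lanosterol, and its row had the widest range of all 29 genes, 2.24. It lay at 7.59, 7.28 and 6.36 in Pfn2-/- liver, against 6.82, 6.96 and 8.60 in wild-type liver (-0.38, SE 0.45), a 4.72-fold span from lowest to highest array. Nsdhl, a sterol dehydrogenase gene of the demethylation steps, lay at 9.72, 9.16 and 9.01 in Pfn2-/- liver, against 8.50, 9.08 and 9.99 in wild-type liver (0.11, SE 0.33). In Sqle, Lss and Nsdhl wild-type replicate 3 was the highest array and Pfn2-/- replicate 1 the next.

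The demethylase gene Cyp51, the methylsterol monooxygenase gene Msmo1 and the ketosteroid reductase gene Hsd17b7 had ranges of 0.90, 1.2 and 1.05 over the arrays and differences of 0.10 (SE 0.22), 0.15 (SE 0.33) and -0.16 (SE 0.25). The desaturase gene Sc5d and the final reductase gene Dhcr7 had ranges of 0.84 and 1.07 and differences of -0.05 (SE 0.21) and -0.11 (SE 0.26). The sterol reductase gene Tm7sf2 and the sterol isomerase gene Ebp varied least, with ranges of 0.68 and 0.55. Ebp lay at 8.61, 8.41 and 8.30 in Pfn2-/- liver, against 8.56, 8.70 and 8.85 in wild-type liver, a difference of -0.26 (SE 0.14, 95% interval -0.57 to 0.04, limma adjusted p = 0.943). Genotype accounted for 53.2% of the variance of Ebp over the arrays, the largest share among the 29 genes, and Pfn2-/- replicate 1 lay inside the wild-type range.

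The enzymes moved together over the arrays. Among the 16 there are 120 pairs of genes, and Pearson's r over the 6 arrays was above 0 in all 120, with a median of 0.86 and a range of 0.42 to 0.99. The lowest r was 0.0095 without wild-type replicate 3 and 0.17 without Pfn2-/- replicate 3, with all 120 still above 0 in either case. As deviations from the genotype means the median was 0.92. All pairs share the same 6 arrays, so the pairs are not independent. The closest pair, chosen after its values were seen, was Fdps with Lss (r = 0.99, Spearman's rho = 1, exact permutation p = 0.00139 and 0.00278, adjusted over all genes 0.795 and 0.85). Without the 2 arrays farthest from the median of Fdps, r was 0.98.

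**Figure D3:**
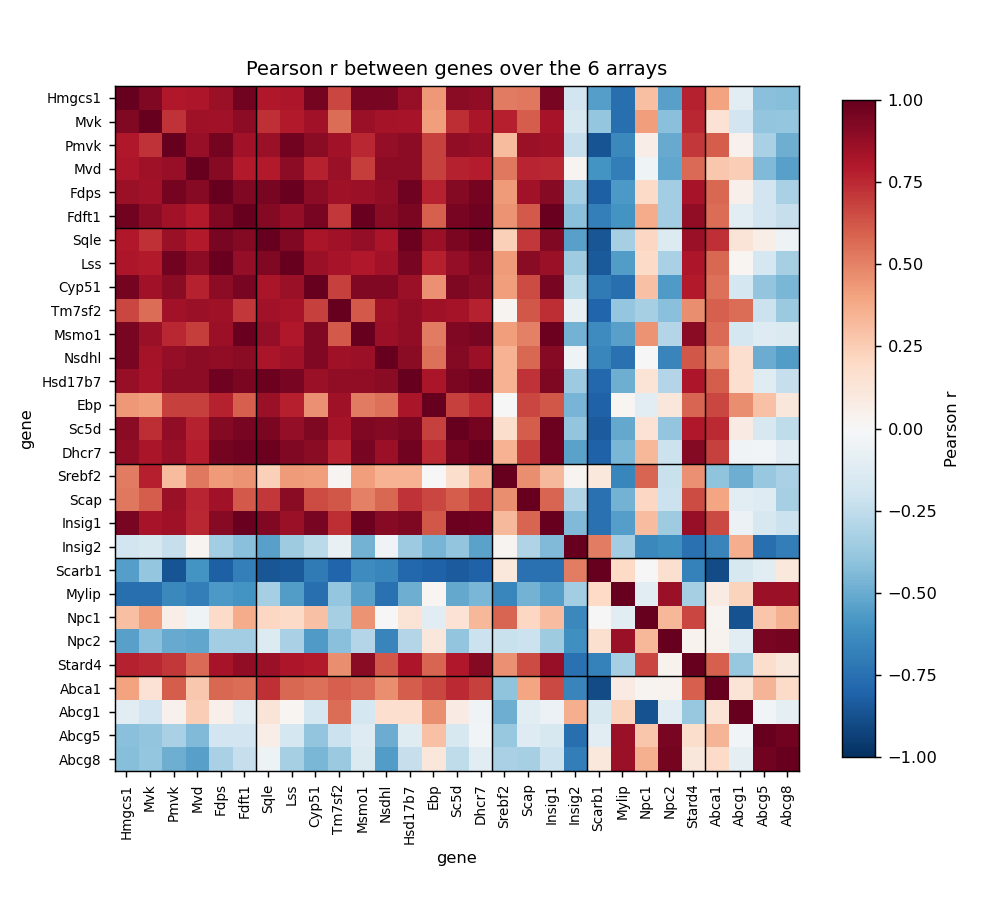
Pearson r between every pair of the 29 measured genes over the 6 arrays, red for positive and blue for negative, with black lines between the roles. The enzymes of the mevalonate and sterol arms, with Insig1 and Stard4, form a red block with r above 0 in all 120 enzyme pairs, Scarb1 is blue against it, and Mylip, Npc2, Abcg5 and Abcg8 are red with each other.

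Each gene was also set against Sqle. Over the 6 arrays the 15 other enzymes had r of 0.73 (Mvk) to 0.98 (Dhcr7) with Sqle, with a median of 0.86, where the median of all genes was 0.02. An exact permutation p under 0.05 with positive r was found for 12 of these 15, against 2.94% of the 22179 other genes. The 720 orders of 6 arrays give no two-sided p below 0.00139, and adjusted over all genes no correlation with Sqle passed (smallest adjusted p = 0.915 for r and 0.97 for Spearman's rho). For Dhcr7, r was 0.98 and rho 0.94 (exact permutation p = 0.00278 and 0.0167), and for Hsd17b7, r was 0.98 and rho 1 (exact permutation p = 0.00278 for either). Arrays were spread along Sqle without separate clusters. Without Pfn2-/- replicate 3 and wild-type replicate 3, the 2 farthest from its median, the enzymes had r of 0.37 (Ebp) to 0.96 (Sc5d) over the 4 arrays left, with a median of 0.84.

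**Figure D4:**
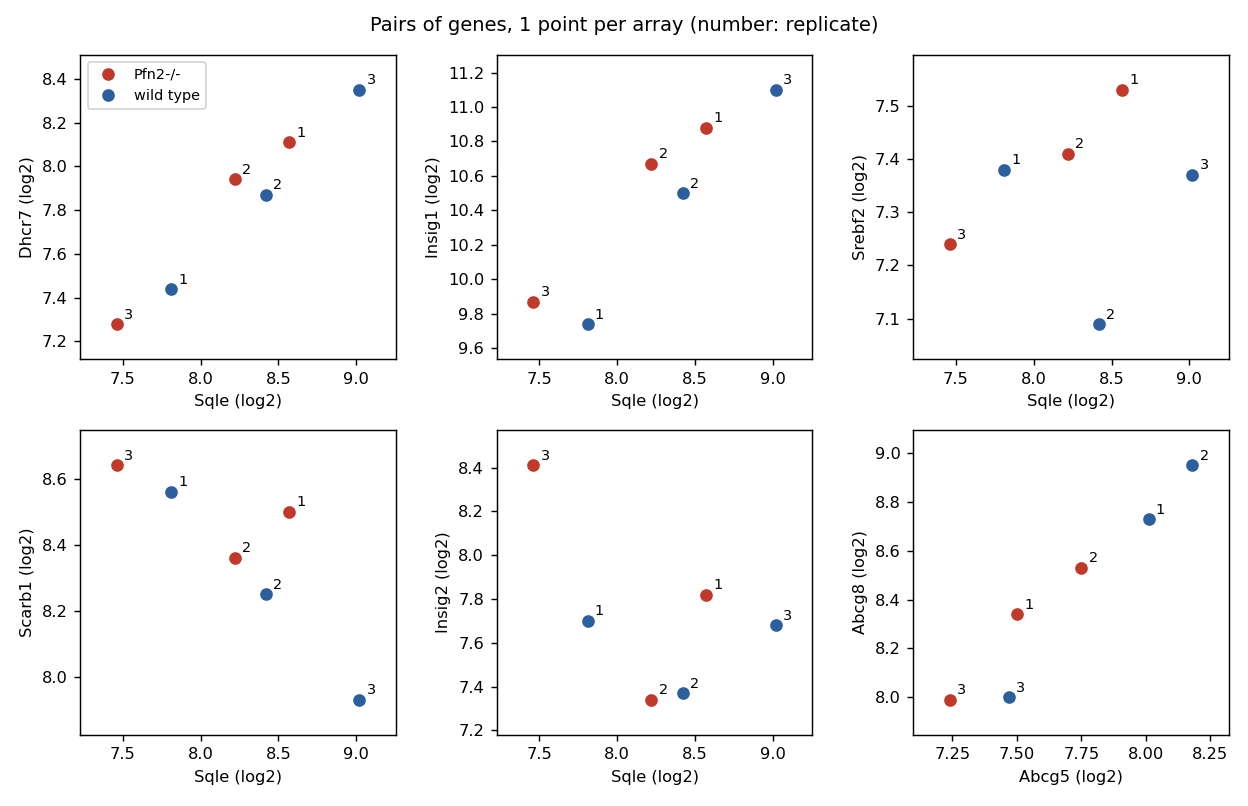
Log2 values of pairs of genes, 1 point per array, labelled by replicate, with Pfn2-/- in red and wild type in blue. Dhcr7 and Insig1 climb with Sqle and Scarb1 declines, Srebf2 and Insig2 show no line, and Abcg8 climbs with Abcg5.

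The promoters of the genes that varied together are given here from RefSeq, as the letters SREBP2 and its partner factor NF-Y are known to read. Windows run from 250 bases before to 50 bases after the annotated start in build GRCm38.p6, and 22 of the 29 measured genes have one, 13 of them synthesis enzymes. Capitals mark every CCAAT, the box bound by NF-Y, and every TCACNCCAC, a form of the sterol regulatory element bound by SREBP2, on either strand. The windows shown are Hmgcs1 (chr13:119690101-119690400, + strand), the gene holding both motifs, Lss (chr10:76531355-76531654, + strand), with the widest range, Cyp51 (chr5:4104648-4104947, - strand), Hsd17b7 (chr1:169969156-169969455, - strand), closest to Sqle in rank, and the regulator gene Insig1 (chr5:28071162-28071461, + strand).
Hmgcs1: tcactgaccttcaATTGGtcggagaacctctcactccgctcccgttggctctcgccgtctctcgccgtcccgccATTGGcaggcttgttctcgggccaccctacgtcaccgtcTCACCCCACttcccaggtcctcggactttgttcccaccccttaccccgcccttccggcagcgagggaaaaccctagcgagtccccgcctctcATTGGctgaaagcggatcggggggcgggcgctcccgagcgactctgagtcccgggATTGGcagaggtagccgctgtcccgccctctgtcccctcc
Lss: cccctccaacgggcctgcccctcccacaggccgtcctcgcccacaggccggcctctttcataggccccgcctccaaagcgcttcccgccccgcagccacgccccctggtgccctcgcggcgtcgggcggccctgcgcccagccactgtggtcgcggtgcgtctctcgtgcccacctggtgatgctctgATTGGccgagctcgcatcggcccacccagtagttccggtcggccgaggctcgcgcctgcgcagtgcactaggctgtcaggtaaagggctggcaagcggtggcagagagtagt
Cyp51: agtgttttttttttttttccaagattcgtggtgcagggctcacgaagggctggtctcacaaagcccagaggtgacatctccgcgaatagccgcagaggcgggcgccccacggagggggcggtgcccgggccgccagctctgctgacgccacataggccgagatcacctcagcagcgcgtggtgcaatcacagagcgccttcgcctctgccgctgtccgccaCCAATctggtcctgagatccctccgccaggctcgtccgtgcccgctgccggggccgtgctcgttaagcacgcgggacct
Hsd17b7: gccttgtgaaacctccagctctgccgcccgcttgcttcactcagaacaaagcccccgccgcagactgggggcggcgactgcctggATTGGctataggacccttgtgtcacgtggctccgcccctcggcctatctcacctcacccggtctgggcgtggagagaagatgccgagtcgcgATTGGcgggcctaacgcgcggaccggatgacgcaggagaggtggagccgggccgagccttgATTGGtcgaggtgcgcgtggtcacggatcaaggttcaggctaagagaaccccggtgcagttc
Insig1: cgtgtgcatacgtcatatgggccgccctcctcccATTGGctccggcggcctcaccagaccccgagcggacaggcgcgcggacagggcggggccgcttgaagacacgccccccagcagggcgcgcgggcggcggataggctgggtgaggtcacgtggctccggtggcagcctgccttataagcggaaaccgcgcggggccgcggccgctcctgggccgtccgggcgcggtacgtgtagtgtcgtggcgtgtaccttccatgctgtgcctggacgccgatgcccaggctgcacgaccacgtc

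Hmgcs1 held 4 CCAAT boxes and 1 TCACNCCAC, Hsd17b7 held 3 CCAAT boxes, and Lss, Cyp51 and Insig1 held 1 CCAAT box each. CCAAT was found in the windows of 13 of 13 enzymes, against 41.1% of the 27025 genes with a window and 41.8% of those brighter than the median gene here. It was also in 7 of 9 other cholesterol genes with a window, among them Srebf2, Insig2, Mylip, Npc2, Abcg5 and Abcg8. The windows of Abcg5 and Abcg8 overlap, and the 1 CCAAT in their shared stretch lies in the window of either gene. The longer CCAATC, which contains CCAAT, was found in 12 of 13 enzymes (all but Pmvk), against 18.2% of all genes and 22.5% of the brighter ones, and in 3 of 9 other cholesterol genes. TCACNCCAC was found in 1 of 13, Hmgcs1, against 1.44% of all genes. The GC box GGGCGG was in 12 of 13 enzymes and 7 of 9 other cholesterol genes, against 38.2% of all genes and 67.3% of the brighter ones, the E-box CACGTG in 3 of 13 against 8.09%, and the half-site AGGTCA in 2 of 13 against 18.1%. These 6 strings were searched on both strands, and a match describes letters in the window, not a bound site. Other forms of the sterol regulatory element were not searched, so a window without TCACNCCAC may still hold one. A gene with several windows counted where any held the string.

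Of the 4 regulators, Insig1 lay closest to the enzymes. As a description over the 6 arrays, its r with the 16 enzymes was 0.62 to 0.99 with a median of 0.92. That of Scap was 0.51 to 0.90 with a median of 0.66, highest with Lss. Srebf2 had a median of 0.38, with 0.78 for Mvk, and Insig2 a median of -0.35. Insig1, itself a target of SREBP2 and a brake on it, lay at 10.88, 10.67 and 9.87 in Pfn2-/- liver, against 9.74, 10.50 and 11.10 in wild-type liver (difference 0.03, SE 0.34). Its r with Sqle was 0.93 and rho 0.89 (exact permutation p = 0.00972 and 0.0333), and r was 0.92 without the 2 farthest arrays. Srebf2 was nearly level, at 7.53, 7.41 and 7.24 in Pfn2-/- liver against 7.38, 7.09 and 7.37 in wild-type liver (0.11, SE 0.14). Its r with Sqle was 0.24 (rho 0.20, exact permutation p = 0.675 and 0.714), and its range of 0.44 over the arrays is set beside 1.56 for Sqle.

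Scap lay at 8.04, 8.09 and 7.82 in Pfn2-/- liver, against 8.10, 7.88 and 8.47 in wild-type liver (-0.17, SE 0.17). Its r with Sqle was 0.71 (rho 0.49, exact permutation p = 0.101 and 0.356), and it became -0.55 without the 2 farthest arrays, so it rests on those arrays. Insig2, the second retention protein, lay at 7.82, 7.34 and 8.41 in Pfn2-/- liver, against 7.70, 7.37 and 7.68 in wild-type liver (0.27, SE 0.24). Its highest value was in Pfn2-/- replicate 3, the array where Insig1 was lowest among Pfn2-/- livers, and without that array the difference was -0.0033. Insig2 had r = -0.54 and rho = -0.31 with Sqle (exact permutation p = 0.276 and 0.564), and r was -0.02 without the 2 farthest arrays.

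Clock genes in that same array, Pfn2-/- replicate 3, are given beside it. The clock output gene Dbp lay at 8.73, 9.06 and 6.06 in Pfn2-/- liver, against 8.31, 8.47 and 8.35 in wild-type liver. Arntl, which encodes the activator BMAL1, lay at 5.61, 5.66 and 7.82 in Pfn2-/- liver, against 5.89, 5.42 and 6.62 in wild-type liver. Pfn2-/- replicate 3 thus had the lowest Dbp and the highest Arntl of the 6 arrays, together with the lowest Sqle and the highest Insig2. The hour of dissection is not given, and the part of the clock in these values was not tested. All 11 clock genes measured of 12 listed had a median difference of -0.26, with 1 (Npas2, higher in Pfn2-/-) at an unadjusted p under 0.05, where 2.67% of all genes were higher.

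Among genes of uptake and transport within the cell, Stard4 went with the enzymes and Scarb1 against them. Stard4 encodes a cytosolic sterol carrier known as a target of SREBP2. It lay at 7.49, 7.64 and 6.43 in Pfn2-/- liver, against 6.94, 7.21 and 7.62 in wild-type liver (-0.07, SE 0.30), with r = 0.86 and rho = 0.66 to Sqle (exact permutation p = 0.0278 and 0.175) and r = 0.63 without the 2 farthest arrays. Scarb1 encodes the receptor for high-density lipoprotein. It lay at 8.50, 8.36 and 8.64 in Pfn2-/- liver, against 8.56, 8.25 and 7.93 in wild-type liver (0.25, SE 0.17). Its r with Sqle was -0.86 and rho -0.83 (exact permutation p = 0.0306 and 0.0583, adjusted over all genes 0.928 and 0.979), where 2.24% of all genes had a negative r at p under 0.05, and r was -0.46 without the 2 farthest arrays.

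Mylip encodes a ubiquitin ligase that directs lipoprotein receptors to degradation and is a target of liver X receptors. It lay at 6.53, 6.69 and 6.69 in Pfn2-/- liver, against 7.18, 7.34 and 6.46 in wild-type liver (-0.36, SE 0.21, limma adjusted p = 0.953). Wild-type replicates 1 and 2 stood above all Pfn2-/- arrays and wild-type replicate 3 below them. The lysosomal export genes Npc1 and Npc2 differed by 0.18 (SE 0.21) and -0.11 (SE 0.13), with ranges of 0.93 and 0.31 over the arrays.

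The efflux genes had negative estimates in 4 of 4, none past the test, where 11059 of all 22180 genes had a negative estimate. These genes share the same arrays, so their signs are not independent. Abcg5 and Abcg8 encode the partner subunits of a transporter that sends sterols into bile. Abcg5 lay at 7.5, 7.75 and 7.24 in Pfn2-/- liver, against 8.01, 8.18 and 7.47 in wild-type liver (-0.39, SE 0.20, 95% interval -0.84 to 0.06). Abcg8 lay at 8.34, 8.53 and 7.99 in Pfn2-/- liver, against 8.73, 8.95 and 8.00 in wild-type liver (-0.27, SE 0.24). In both genes wild-type replicates 1 and 2 were the highest of the 6 arrays, and wild-type replicate 3 lay within the Pfn2-/- range. Without wild-type replicate 3, Abcg5, Abcg8 and Mylip had an unadjusted p under 0.05 and were lower in Pfn2-/- liver, Hmgcs1 had one and was higher, and 7.03% of all genes did too. None of the 29 passed over all genes in that setting.

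Abcg5 and Abcg8 ranked the 6 arrays in the same order. Their r was 0.96 and rho 1 (exact permutation p = 0.00694 and 0.00278, adjusted over all genes 0.505 and 0.601), r was 0.91 without the 2 arrays farthest from the median of Abcg5, and 0.99 as deviations from the genotype means. The pair was singled out after its values were seen. As a description, with no test, Npc2 had r of 0.95 with Abcg5 and 0.96 with Abcg8, and Mylip had 0.87 and 0.86. With Sqle, Abcg5 had r = 0.07 and Abcg8 r = -0.05 (exact permutation p = 0.893 and 0.9), with rho 0.03 and exact permutation p = 1 for either. With the nearer of the starts listed for Abcg8, the starts of the 2 genes lie 110 bases apart on opposite strands, and their promoter windows overlap over 209 bases at chr17:84682962-84683170 of GRCm38.p6, shown on the + strand with Abcg8 running rightwards. Capitals again mark CCAAT, of which the stretch held 1, and it held no TCACNCCAC.
Abcg5 and Abcg8: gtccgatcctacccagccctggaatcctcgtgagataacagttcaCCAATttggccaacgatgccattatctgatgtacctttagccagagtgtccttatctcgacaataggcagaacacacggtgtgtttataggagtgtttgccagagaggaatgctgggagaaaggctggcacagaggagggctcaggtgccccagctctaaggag

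Abca1 and Abcg1, whose products load cholesterol onto lipoproteins, differed by -0.11 (SE 0.13) and -0.25 (SE 0.18). The Abcg1 difference was -0.04 without Pfn2-/- replicate 2. With Sqle, Abca1 had r = 0.73 and rho = 0.70 (exact permutation p = 0.114 and 0.144), and r was 0.43 without the 2 farthest arrays. For Abcg1, r with Sqle was 0.13 and rho 0.37 (exact permutation p = 0.797 and 0.497). Abca1 had the smallest range of the 29 genes, 0.27. Abcg1 was the dimmest of them, with means of 5.64 ± 0.36 in Pfn2-/- and 5.89 ± 0.15 in wild type (SD, n = 3 each).

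Markers of cells other than hepatocytes are set beside the efflux genes. The efflux mean, each gene centred, was -0.08, -0.08 and -0.22 in Pfn2-/- arrays, against 0.12, 0.35 and -0.09 in wild-type arrays. The mean of the 6 Kupffer cell markers, all measured, was -0.02, 0.01 and -0.14 in Pfn2-/- arrays, against -0.05, 0.48 and -0.28 in wild-type arrays. Their summed log2 level was 43.47 to 44.42 in Pfn2-/- and 42.64 to 47.23 in wild type, none was at 0, and wild-type replicate 2 was highest in both lists. The 6 endothelial markers summed to 45.15 to 46.42 in Pfn2-/- and 45.26 to 48.00 in wild type. Their mean, each gene centred, was -0.185, 0.03 and -0.18 in Pfn2-/- arrays, against 0.21, 0.29 and -0.17 in wild-type arrays. Lyve1 had the widest range of them, 2.51, at 6.72, 8.41 and 7.74 in Pfn2-/- liver, against 9.07, 9.23 and 6.78 in wild-type liver. The ranges of Stab2, Stab1, Clec4g, Kdr and Pecam1 were 0.24, 0.31, 0.34, 0.49 and 0.76, so the mean rests largely on Lyve1. The 6 stellate markers summed to 45.73 to 46.49 in Pfn2-/- and 45.47 to 47.49 in wild type. Their mean was -0.11, 0.02 and -0.05 in Pfn2-/- arrays, against 0.12, 0.18 and -0.15 in wild-type arrays. Wild-type replicate 2 thus had the highest mean in these lists, though not in every marker list. The hepatocyte marker mean was nearly level, at -0.02, -0.05 and 0.01 in Pfn2-/- arrays, against 0.05, 0.06 and -0.05 in wild-type arrays. In bulk liver, fewer cells of a type and less RNA per cell cannot be told apart, and the part of these cells in the efflux values was not tested.

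Wild-type replicate 3, the highest array for most enzymes, also stood apart in fatty acid synthesis. The mean of the 16 measured lipogenesis genes, each centred, was 1.15 there and -0.33 to -0.07 in the other 5 arrays. The median difference of the list was -0.49, with 5 genes lower in Pfn2-/- and 0 higher at an unadjusted p under 0.05, where 2.62% of all genes were lower. These were Scd1, Elovl5, Thrsp, Fads1 and Fads2, and in all but Thrsp the genotypes did not overlap (4 of 16 genes, beside 4.76% of all genes lower). Among wild-type arrays, replicate 3 was the highest for Scd1, Elovl5 and Thrsp and the lowest for Fads1 and Fads2. Pfn2-/- replicate 1, the next highest for the enzymes, lay at -0.07 in that list. Srebf1, which encodes the related factor SREBP1, lay at 8.03, 7.78 and 7.44 in Pfn2-/- liver, against 7.36, 7.47 and 8.76 in wild-type liver. The 11 measured fasting-responsive genes had a median difference of -0.27 with 3 at an unadjusted p under 0.05, all lower in Pfn2-/- (2.62% of all genes were lower at that p), and their array means were -0.58, -0.37 and 0.02 in Pfn2-/- and 0.44, 0.35 and 0.14 in wild type. The feeding state was not given and its part was not tested.

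**Figure D5:**
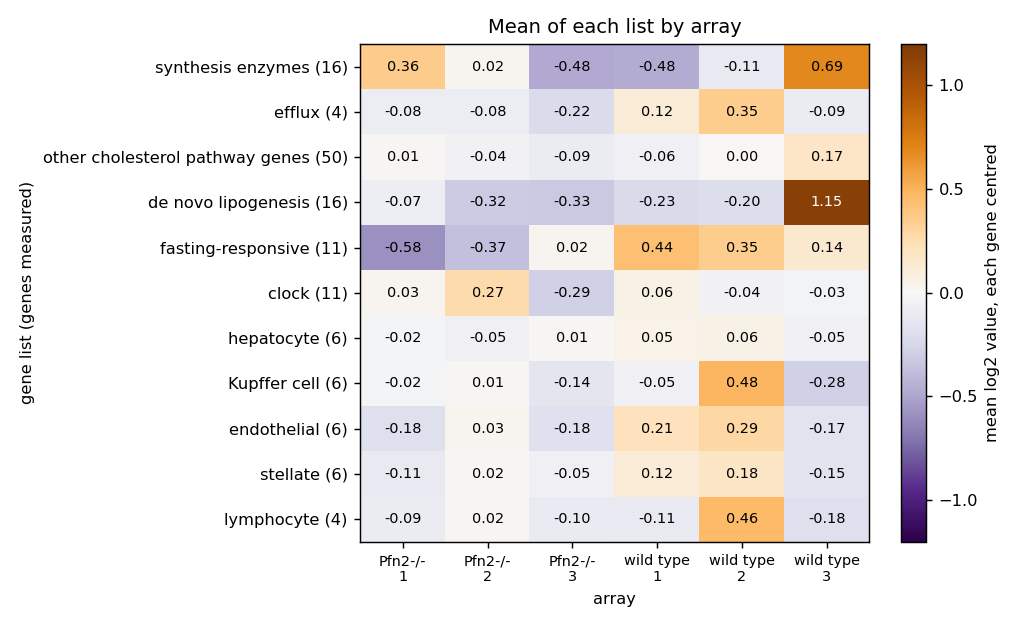
Mean log2 value of each gene list on each array, every gene centred on its own mean over the 6 arrays, with the number of measured genes in brackets. The synthesis enzymes are high in Pfn2-/- replicate 1 and wild-type replicate 3, lipogenesis in wild-type replicate 3, and the Kupffer cell and lymphocyte markers in wild-type replicate 2.

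Among 50 measured genes of a list of 59 other cholesterol pathway genes, 2 had an unadjusted p under 0.05, both lower in Pfn2-/- liver and 0 higher, where 2.62% of all genes were lower and 2.67% higher at that p. Pfn2-/- and wild-type values did not overlap in 4 lower genes (4.76% of all genes) and 2 higher genes (5.09% of all genes), and 0 of the 50 passed over all genes. The lower ones were Mbtps2, Nr1h4, Cyp27a1 and Cyp39a1 and the higher ones Lrp1 and Apob. The 2 at that p were bile acid enzymes. Cyp39a1, an oxysterol hydroxylase gene, lay at 6.84, 7.83 and 7.30 in Pfn2-/- liver, against 8.15, 8.41 and 8.12 in wild-type liver (-0.90, SE 0.22, limma adjusted p = 0.731), with no overlap. Cyp7a1, the rate-limiting enzyme of bile acid synthesis from cholesterol, lay at 10.37, 10.03 and 10.85 in Pfn2-/- liver, against 10.62, 11.16 and 10.97 in wild-type liver (-0.50, SE 0.21, limma adjusted p = 0.92), with overlap. Its unadjusted limma p of 0.0423 became 0.0983 without Pfn2-/- replicate 1, 0.166 without Pfn2-/- replicate 2, 0.142 without wild-type replicate 2 and 0.0882 without wild-type replicate 3. The list's median difference was -0.06.

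Cyp39a1, Srebf1 and the next 3 genes had the 5 widest ranges of that list. The acetyl-CoA synthetase gene Acss2 lay at 8.33, 7.93 and 7.51 in Pfn2-/- liver, against 7.49, 8.24 and 10.06 in wild-type liver (-0.67, SE 0.52). The acetoacetyl-CoA synthetase gene Aacs lay at 7.91, 6.51 and 7.24 in Pfn2-/- liver, against 6.88, 7.29 and 8.38 in wild-type liver (-0.30, SE 0.40), and the retinol dehydrogenase gene Rdh11 at 7.73, 7.82 and 6.63 in Pfn2-/- liver, against 7.25, 7.82 and 8.64 in wild-type liver (-0.51, SE 0.37). All 3 were highest in wild-type replicate 3.

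Outside the 32 genes, those most like the enzymes were taken by Pearson's r with the enzymes' mean profile over the 6 arrays, among 705 genes brighter than the median gene and with a range of at least 1. The 8 highest were Camk1d (0.96), Srebf1 (0.95), Gpam (0.94), Rps23rg1 (0.94), Rassf6 (0.94), Mid1ip1 (0.93), Acpp (0.93) and Erbb4 (0.92), chosen for this likeness and given with no test. Gpam encodes the first enzyme of triglyceride synthesis and Mid1ip1 an activator of acetyl-CoA carboxylase. Camk1d lay at 7.90, 7.87 and 7.16 in Pfn2-/- liver, against 6.98, 7.46 and 8.24 in wild-type liver, the order of the enzymes' means but for the 2 lowest arrays.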

How the data were processed

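Whole-liver RNA of 6 mice was measured on 6 Affymetrix arrays, labelled with the GeneChip WT PLUS kit, per the labels' protocols. The authors deposited log2 expression values made with RMA, per the submitters' processing notes, which also name limma. Software versions and the annotation release were not given in the sources used here. RMA quantile normalizes arrays and compresses changes of dim rows. Values were rounded to 2 decimals and ran from 1.04 to 13.56. Arrays give no read depth, and their number limits the precision.

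Of 34390 rows, 23521 had 1 gene symbol, 1814 several and 9055 none in the platform annotation. For the genotype difference, limma 3.58.1 under R 4.3.3 was given the genotype alone (lmFit, eBayes without trend), and the two-sided p-values of all 22180 genes went into a Benjamini-Hochberg adjustment. Correlations were tested by exact permutation over the 720 orders of the arrays, two-sided, and adjusted over all genes. Scripts were tested on simulated data. Same-numbered arrays share an age but did not deviate together in every pair (r = -0.08, 0.15 and 0.02 for replicates 1, 2 and 3). The main fit used no block, and a fit with one is given as an alternative.

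The members, lists and tests were chosen with earlier results of these data known. Values per array are given for any member with an unadjusted p under 0.05 or no overlap (none was found), the 8 widest members, the regulators, the genes at that p and the 5 widest of the other pathway list, Pfn2, and further members (Ebp, Stard4, Scarb1, Mylip, Abcg5 and Abcg8), clock genes and Camk1d chosen after their values were seen. The 6 promoter strings were also chosen then. Lists of other cells with no value above are given in the closing section. Alternatives were other scalings, filters, row choices, variance models, array weights, a replicate block and each array left out.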

Additional observations from a re-analysis of the deposited data

How the results depend on the processing

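The count of genes past the adjusted threshold was 0 in the main comparison, 2 with array weights, 7 with the replicate block, and 0 to 6 when each array was left out. The count of cholesterol genes at an unadjusted p under 0.05 was 0 in the main comparison, 2 with array weights (Mylip and Abcg5, beside 7.22% of all genes), 1 with the replicate block (Abcg5, beside 5.73%) and 0 to 4 when each array was left out. It was 4 without wild-type replicate 3 (7.03% of all genes), 2 without Pfn2-/- replicate 2 (Insig2 and Abcg5, 6.57%), and 1 without Pfn2-/- replicate 1 (Ebp, 4.37%), Pfn2-/- replicate 3 (Npc1, 5.84%) or wild-type replicate 1 (Scarb1, 4.08%). No cholesterol gene passed over all genes in any alternative run, and the cause was not tested. The numbers of the replicates go with age but did not pair the arrays by their deviations, so the block is an alternative and not the main fit. With it, Abcg5 differed by -0.39 (limma adjusted p = 0.816). The enzymes' median difference was -0.32 to 0.26 when each array was left out, with 0.26 without wild-type replicate 3, 0.07 without Pfn2-/- replicate 3, and 0.08 with array weights. That of the uptake, transport and efflux genes was -0.22 to -0.08.

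Of the 29 genes, 12 kept their sign under every alternative run, 7 turned it with array weights and 17 when 1 array was left out. With array weights the differences that turned were 0.011 for Pmvk, 0.15 for Mvd, 0.044 for Fdps and 0.041 for Hsd17b7. They were 0.092 for Sc5d, 0.072 for Dhcr7 and 0.079 for Stard4. Outside the 29 genes, they were 0.030 for Aacs and 0.11 for Srebf1. With each array left out the ranges that crossed 0 were -0.037 to 0.95 for Hmgcs1, -0.038 to 0.41 for Mvk, -0.65 to 0.34 for Pmvk, -0.41 to 0.29 for Mvd, -0.56 to 0.22 for Fdps, -0.21 to 0.38 for Fdft1, -0.70 to 0.19 for Lss, -0.10 to 0.35 for Cyp51, -0.16 to 0.49 for Msmo1, -0.24 to 0.51 for Nsdhl, -0.37 to 0.092 for Hsd17b7, -0.27 to 0.15 for Sc5d and -0.33 to 0.14 for Dhcr7. They were -0.33 to 0.35 for Insig1, -0.0033 to 0.53 for Insig2, -0.04 to 0.43 for Npc1 and -0.30 to 0.31 for Stard4. Outside the 29 genes, they were -1.23 to 0.058 for Acss2, -0.64 to 0.14 for Aacs and -0.37 to 0.34 for Srebf1.

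Alternatives for the correlations were chosen after seeing the data. The median r over enzyme pairs was 0.83 to 0.91 with each array left out and 0.86 to 0.87 under other scalings, and that of Abcg5 with Abcg8 was 0.93 to 0.99 with each array left out.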

Other observations

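The lists of other cells and tissues not described above held 2 genes at an unadjusted p under 0.05, where 2.67% of all genes were higher and 2.62% lower. Of 4 cholangiocyte markers 1 (Sox9) was higher in Pfn2-/- liver at that p, and of 3 pancreas markers 1 (Prss2). None of 4 lymphocyte, 5 neutrophil and 3 adipocyte markers, and not the 1 erythroid marker measured, had such a p in the limma fit. The lymphocyte mean was highest in wild-type replicate 2, at 0.46, with -0.10 to 0.02 in Pfn2-/- arrays and -0.11 and -0.18 in the other wild-type arrays.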
